A study of Mus musculus with 4 samples.

Results

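The 40 genes described here act in the G2 and M phases of the cell cycle, in which a cell prepares for division and separates its chromosomes. They were taken from a list of such genes and were all found by symbol among the 17391 genes of the count table. The members and lists were chosen with earlier results of these data known, so they are not independent of the values given here. Of the 40, 33 are made mainly by dividing cells and are called the core members, and 7 (Bub3, Tubb4b, Anp32e, Lbr, Ckap5, Smc4 and Hmgb2) are also made by cells that do not divide and are called the broadly made members. Messenger RNA was counted per cell barcode by Drop-seq, which captures single cells with barcoded beads in droplets, in primary cultures of Gli1-positive cells grown from kidneys of 12-week-old male mice. In the kidney Gli1 is a marker of mesenchymal cells lying around blood vessels. All cultures spent 2 h without serum. The control was then harvested untreated and is labelled 0 h, and the others received TGF-β at 1 ng/ml for 6, 12 or 24 h. Each time point is 1 library, so no difference between times has a replicate check, and every interval given covers counting error only. Strain, number of animals and pooling are not stated in those sources.

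Entry into mitosis is driven by the kinase Cdk1 bound to B-type cyclins. Chromosomes are then condensed and attached to the spindle through kinetochores, a checkpoint holds the cell until all are attached, and the anaphase-promoting complex (APC/C) releases it by marking the cyclins and securin for destruction. Most genes of this programme are switched on late in each cycle through promoter elements named CHR and CCAAT, and their messenger RNAs are therefore low in cells that have left the cycle. TGF-β is known to turn kidney mesenchymal cells towards matrix-producing myofibroblasts, and its effect on their division depends on the setting.

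The libraries differed in depth and content. Barcodes numbered 192, 658, 1120 and 1328 in time order, with 106826, 778793, 5687966 and 6166324 counts and medians of 489.5, 313.5, 3815.5 and 3379 counts per barcode. No barcode was shared between libraries. The 6 h library was uneven, since 79.6% of its barcodes lay below 500 counts, and the 80 barcodes at 1000 counts or above held 74.1% of its counts. The markers in the control, labelled 0 h, went against its label. Its 11 mesenchymal marker genes summed to 56.2 CPM (counts scaled to a library total of 1000000), with 7 of them at 0, among them Col1a1, Col3a1 and Sparc, against 14797 to 18081 CPM in the treated libraries. Its 12 proximal tubule markers summed to 17318 CPM, against 6.81 to 7.91 CPM in the treated libraries, where endothelial and macrophage markers were also at most 8.09 and 7.70 CPM. Its values are therefore given as a description, and the calls and time courses use the treated libraries.

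The promoters of the members carried the 2 cell cycle elements more often than promoters in general. RefSeq promoters (mouse build GRCm38.p6, 250 bases before to 50 bases after the start) were found for 37 members, in 40 entries. Both strands were searched for CHR, spelled TTTGAA or as either of the accepted variants TTTAAA and TTCGAA, and for the CCAAT box. A CHR was present in 90.0% of the member entries, in 28.8% of all 32851 promoters and in 21.8% of those of genes in the table. At least 2 CCAAT boxes stood in 65.0% of the member entries, in 11.7% of all promoters and in 13.2% of those of genes in the table. A CHR beginning between 50 bases before and 44 bases after the start, a window chosen after some of these promoters had been seen, was present in 72.5%, 8.62% and 5.82%. The shorter CDE element, GGCGG in its usual form and CGCGG in its variant, which can overlap GC-rich sequence of other kinds, was in 95%, 52.3% and 78%. All 7 entries of the broadly made members (6 of the 7 genes, without Smc4) held a CHR and at least 2 CCAAT boxes, so these letters did not separate them from the core members. A match is a description of letters and not of binding.

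Shown here are the 110 bases before the start of 5 members that held both elements in this stretch, 5′ to 3′ on the strand of the gene, with CHR and CCAAT (or, where they lie on the other strand, TTCAAA for the former and ATTGG for the latter) in capitals. They are shown because both elements lie close to the start in each.
Cdk1, chr10:69352913-69353022, minus strand: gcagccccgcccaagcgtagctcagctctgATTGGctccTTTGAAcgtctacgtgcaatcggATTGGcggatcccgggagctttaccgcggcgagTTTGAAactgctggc
Cdc20, chr4:118437344-118437453, minus strand: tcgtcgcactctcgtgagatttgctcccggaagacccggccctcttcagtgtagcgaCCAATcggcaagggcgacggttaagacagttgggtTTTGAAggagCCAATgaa
Top2a, chr11:99024190-99024299, minus strand: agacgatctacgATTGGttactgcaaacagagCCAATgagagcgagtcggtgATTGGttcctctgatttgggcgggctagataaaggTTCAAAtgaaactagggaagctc
Hmgb2, chr8:57511733-57511842, plus strand: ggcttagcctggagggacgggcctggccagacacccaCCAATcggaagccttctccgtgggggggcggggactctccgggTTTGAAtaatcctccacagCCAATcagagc
Ckap2l, chr2:129297213-129297322, minus strand: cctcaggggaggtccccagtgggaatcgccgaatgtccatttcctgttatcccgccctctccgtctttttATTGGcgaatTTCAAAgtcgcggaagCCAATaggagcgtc
The CHR closest to the start began 15 bases before it in Cdk1, 18 in Cdc20, 23 in Top2a and 30 in both Hmgb2 and Ckap2l. In the GENCODE M21 annotation of mm10 these genes include Cdk1 at chr10:69335146-69352938 and Top2a at chr11:98992943-99024189, both on the minus strand, and the last 26 bases of the Cdk1 stretch and the last 9 of the Cdc20 stretch already belong to the gene.

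Summed over the 40 members, the levels at 6, 12 and 24 h were 4400 CPM (95% interval 4254 to 4550), 1654 CPM (1621 to 1688) and 745 CPM (724 to 767). The sum was 2.66-fold lower (2.56 to 2.77) over the first step and a further 2.22-fold lower (2.14 to 2.30) over the second. The intervals of the 3 libraries did not overlap. Every one of the 40 members had a lower CPM at 12 h than at 6 h. At 24 h 37 of 40 were lower than at 12 h, the exceptions being Cks2, Bub3 and Tubb4b, and with TMM or DESeq2 scaling Lbr as well. In sums over a whole library such as these, fewer dividing cells and less messenger RNA per dividing cell cannot be told apart.

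A member was called lower where the log2 ratio of CPM plus a pseudocount of 10 was -1 or below, and only where its mean level in the pair of libraries compared reached 20 CPM. From 6 h to 12 h 24 of 40 members were lower and none higher, with 5 too low to be called, where 2.85% of the 6355 genes measured were lower and 4.42% higher. From 12 h to 24 h 12 were lower and none higher, with 19 too low, where 0.757% of 6469 genes were lower and 0.665% higher. From 6 h to 24 h 29 were lower and none higher, with 7 too low, where 3.06% of 6238 genes were lower and 3.77% higher. The comparisons share libraries and are not independent. Because the members were chosen with earlier results of these data known, the shares over all genes are given for scale and are not a test. The median log2 ratio over measured members was -1.40, -1.45 and -2.65 in these 3 comparisons, against 0.15, -0.11 and 0.04 over all measured genes. Since a member can reach the mean of 20 CPM through its 6 h level alone, these medians describe the measured members only.

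The core and the broadly made members differed in both steps, and more in the second. The core members summed to 3364 CPM (3237 to 3496), 1067 CPM (1040 to 1094) and 227 CPM (215 to 239) in time order, which is 3.15-fold (3.01 to 3.30) and then 4.70-fold (4.44 to 4.99) lower. The broadly made members summed to 1036 CPM (966 to 1110), 587 CPM (568 to 608) and 519 CPM (501 to 537), which is 1.76-fold (1.63 to 1.91) and then 1.13-fold (1.08 to 1.19) lower. Between 12 h and 24 h 18 of the 33 core members and 1 of the 7 broadly made members were too low to be called. Of the 15 core members measured 12 were called lower, and of the 6 broadly made members measured none was. Of all measured genes 0.757% were lower in this step. The broadly made members supplied the larger part of the summed level at 24 h and the smaller part at 6 h.

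**Figure D1:**
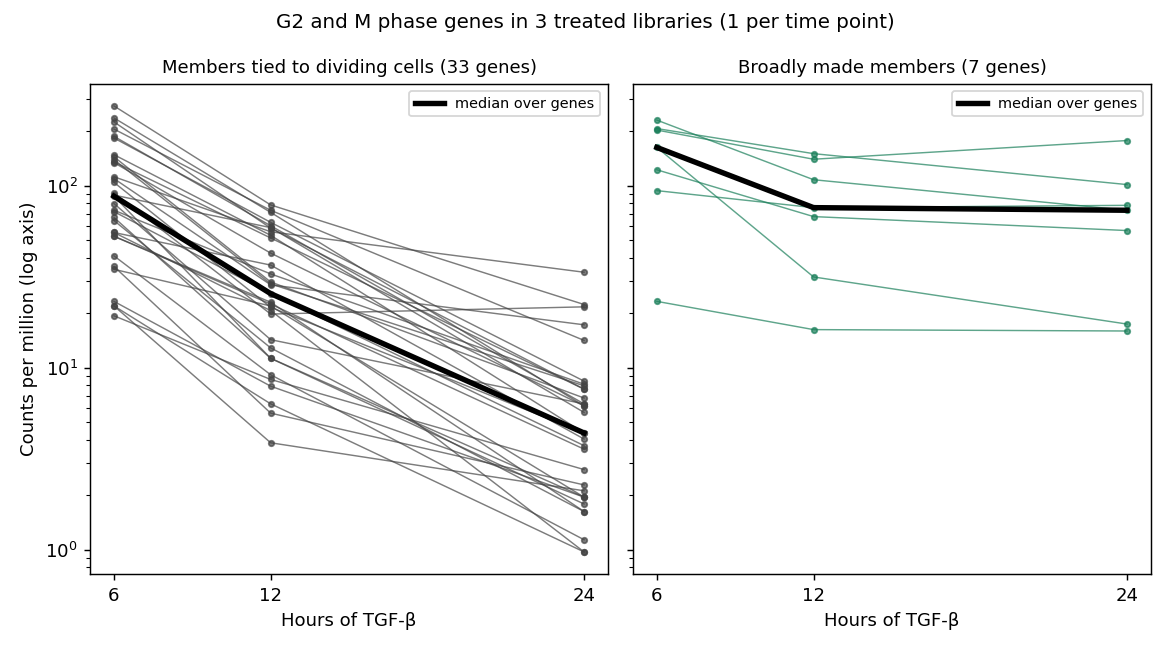
CPM (log axis) of each member at 6, 12 and 24 h of TGF-β, 1 library per time point, with 33 core members at left and 7 broadly made members at right; thin lines are genes and the thick line is their median. The core genes lie lower at each later time except for Cks2 at 24 h, while no broadly made gene is lower by more than 1.81-fold between 12 and 24 h.

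Among the entry genes, Cdk1 had no count at 0 h and was at 109 CPM (87.2 to 135), 28.5 CPM (24.3 to 33.2) and 17.2 CPM (14.1 to 20.8) at 6, 12 and 24 h. It is the kinase that starts mitosis, and its first step, 3.83-fold (2.91 to 5.01) lower, was larger than the second, 1.66-fold (1.29 to 2.14). Ccnb1, its main cyclin partner, was at 41.1 CPM (28.1 to 58.0), 9.14 CPM (6.83 to 12.0) and 1.14 CPM (0.456 to 2.34), the last from 7 counts. Ccnb2, the other B-type cyclin made in most tissues, was at 88.6 CPM (68.9 to 112), 58.7 CPM (52.6 to 65.4) and 5.68 CPM (3.95 to 7.89). In summed counts the ratios of the B-type cyclins differed in the first step beyond counting error. Ccnb1 was lower by 4.49-fold (2.80 to 7.11) and Ccnb2 by 1.51-fold (1.15 to 1.96). Over the second step, Ccnb1 was lower by 8.05-fold (3.64 to 21.0) and Ccnb2 by 10.3-fold (7.29 to 15.1), with overlapping intervals. The first-step difference rests on few barcodes at 6 h. There the 32 counts of Ccnb1 came from 17 barcodes and the 69 of Ccnb2 from 27. With every barcode weighted alike, Ccnb2 was higher at 12 h than at 6 h. Whether the cyclins differ beyond the variation between barcodes was not tested. Cks2, a small subunit bound by Cdk1, was at 91.2 CPM (71.2 to 115), 19.7 CPM (16.2 to 23.7) and 21.6 CPM (18.1 to 25.6), so that its 12 h and 24 h intervals overlapped. It was the only core member not lower at 24 h than at 12 h. Cdca3, which supports mitotic entry, was at 34.7, 21.8 and 1.95 CPM, a course close to that of Ccnb2.

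The spindle checkpoint and APC/C genes summed to 358 CPM (317 to 403), 150 CPM (141 to 161) and 91.8 CPM (84.4 to 99.7) at 6, 12 and 24 h. The sum at 24 h was mostly Bub3, a checkpoint protein with further uses outside mitosis, which was at 93.7 CPM (73.5 to 118), 75.6 CPM (68.6 to 83.1) and 77.8 CPM (71.0 to 85.1) with overlapping intervals throughout. Bub1, the checkpoint kinase that binds Bub3, was at 71.9 CPM (54.3 to 93.4), 25.5 CPM (21.5 to 30.0) and 3.73 CPM (2.36 to 5.60). The partners therefore differed from each other, at 19.3-fold (11.7 to 32.8) lower for Bub1 and 1.20-fold (0.928 to 1.54) for Bub3 from 6 h to 24 h. Ttk, the kinase that starts checkpoint signalling, was at 36.0, 5.63 and 2.27 CPM, from 28, 32 and 14 counts. Cdc20, the activator of the APC/C, was at 52.6 CPM (37.8 to 71.4), 22.3 CPM (18.6 to 26.6) and 3.57 CPM (2.24 to 5.40). Ube2c, the ubiquitin-conjugating enzyme that works with the APC/C, was at 104 CPM (82.6 to 129), 21.4 CPM (17.8 to 25.6) and 4.38 CPM (2.89 to 6.37), a 23.8-fold (15.2 to 38.2) lower level over the whole course.

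The 5 centromere and kinetochore genes had the largest summed ratio of the role groups with more than 1 gene, at 24.5-fold (20.2 to 30.0) lower from 6 h to 24 h, and all 5 were called lower in that comparison. Their sums in time order were 541 CPM (490 to 595), 195 CPM (184 to 207) and 22.1 CPM (18.5 to 26.1). Cenpf, a large protein of the outer kinetochore, was at 186 CPM (157 to 219), 60.1 CPM (53.9 to 66.8) and 6.32 CPM (4.50 to 8.65). Cenpe, the kinetochore motor that aligns chromosomes, was at 182 CPM (154 to 215), 62.8 CPM (56.4 to 69.6) and 8.43 CPM (6.30 to 11.1), a course close to that of Cenpf. Cenpa, the histone variant that marks centromeres, was nearer to Ccnb2, with a first step of 1.51-fold (1.06 to 2.11) and a second of 9.02-fold (5.94 to 14.3). Ndc80 and Nuf2, partners in the complex that grips spindle microtubules, were both at 1.62 CPM from 10 counts at 24 h, against 64.2 and 52.6 CPM at 6 h.

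The aurora kinases themselves were thinly counted, with 18, 45 and 12 counts of Aurka and 17, 22 and 13 of Aurkb at 6, 12 and 24 h. Neither could be called in any comparison, although over the whole course their levels were lower by 11.9-fold (5.41 to 27) and 10.4-fold (4.74 to 23.2). Birc5 (survivin), a subunit of the Aurkb-containing chromosomal passenger complex, was at 134 CPM (109 to 162), 42.5 CPM (37.4 to 48.3) and 6.16 CPM (4.36 to 8.46) and was called lower in all 3 comparisons. Cdca8 (borealin), another subunit of that complex, was at 79.6 CPM (61.0 to 102), 14.2 CPM (11.3 to 17.7) and 6.32 CPM (4.50 to 8.65), so its larger ratio fell before 12 h.

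Of the 11 spindle genes, 8 were called lower from 6 h to 24 h. Hmmr, a microtubule-binding protein of the spindle, was at 235 CPM (202 to 272), 71.2 CPM (64.4 to 78.5) and 6.16 CPM (4.36 to 8.46), 38.1-fold (26.8 to 55.6) lower over the whole course. Tpx2, which activates Aurka on the spindle, was at 148 CPM (122 to 177), 53.3 CPM (47.4 to 59.6) and 4.38 CPM (2.89 to 6.37), with no overlap of intervals. Nusap1, which bundles spindle microtubules around chromosomes, had the largest ratio of any member from 6 h to 12 h, at 7.76-fold (5.43 to 11.1) lower, and Ckap2l, also on spindle microtubules, the largest from 12 h to 24 h, at 21.1-fold (9.43 to 58.8) lower with 6 counts left at 24 h. Among the motors, Kif11, which pushes the spindle poles apart, was at 66.8, 11.3 and 1.95 CPM. Kif20b, a motor used in cytokinesis, was at 139, 28.8 and 7.95 CPM. Kif2c, which takes microtubules apart at kinetochores, had only 17, 36 and 6 counts and could not be called. The group also held the member with the smallest ratio from 6 h to 24 h, 1.14-fold (0.959 to 1.35). This was Tubb4b, a tubulin of many cell types, at 202 CPM (171 to 236), 139 CPM (130 to 149) and 177 CPM (166 to 187), so it was higher at 24 h than at 12 h with no overlap of those intervals. Ckap5, a microtubule polymerase, was at 122, 67.5 and 56.6 CPM. Ckap2 stood out among the core members, at 112 CPM (89.5 to 138), 55.7 CPM (49.8 to 62.2) and 33.4 CPM (29.0 to 38.3), with the smallest core ratio from 6 h to 24 h, 3.34-fold (2.57 to 4.32) lower. Tacc3, which steadies spindle microtubules, was at 73.2, 32.7 and 8.11 CPM.

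The 4 midzone and cytokinesis genes summed to 502 CPM (454 to 554), 163 CPM (152 to 174) and 31.3 CPM (27 to 36). Kif23, a motor of the complex that builds the midzone, was at 204 CPM (174 to 238), 73.1 CPM (66.3 to 80.5) and 14.1 CPM (11.3 to 17.4). Prc1, which crosslinks the midzone microtubules, was at 144 CPM (118 to 173), 29.5 CPM (25.2 to 34.4) and 6.81 CPM (4.91 to 9.21). Anln (anillin), a scaffold of the contractile ring, was at 135 CPM (110 to 163), 51.5 CPM (45.8 to 57.8) and 7.62 CPM (5.60 to 10.1). All 3 had separate intervals at the 3 times, with Prc1 placed lower already at 12 h. Ect2, which switches on RhoA for the ring, had 15, 49 and 17 counts and could not be called.

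Of the chromosome genes, Top2a, the topoisomerase that untangles sister chromosomes, was at 74.9 CPM (32.3 to 148) at 0 h from 8 counts, then at 274 CPM (238 to 313), 78.2 CPM (71.1 to 85.9) and 22.2 CPM (18.7 to 26.3). Its steps were of like size, 3.5-fold (2.96 to 4.13) and 3.52-fold (2.90 to 4.30) lower. Mki67, the coat protein of mitotic chromosomes used as a marker of cycling cells, was at 223 CPM (191 to 259), 58.4 CPM (52.3 to 65.0) and 7.62 CPM (5.60 to 10.1), with the larger ratio at the later step, 7.66-fold (5.63 to 10.6). Smc4, a condensin subunit, was at 229 CPM (196 to 265), 108 CPM (99.2 to 116) and 73.1 CPM (66.5 to 80.2). Hmgb2, a chromatin protein, was at 162 CPM (135 to 193), 31.5 CPM (27 to 36.4) and 17.4 CPM (14.2 to 21.0), and was with Smc4 the only broadly made member called lower, in both cases from 6 h to 12 h and from 6 h to 24 h. Anp32e, a histone chaperone, was at 205, 150 and 101 CPM, and Lbr, a receptor of the nuclear envelope, at 23.1, 16.2 and 15.9 CPM with overlapping intervals.

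**Figure D2:**
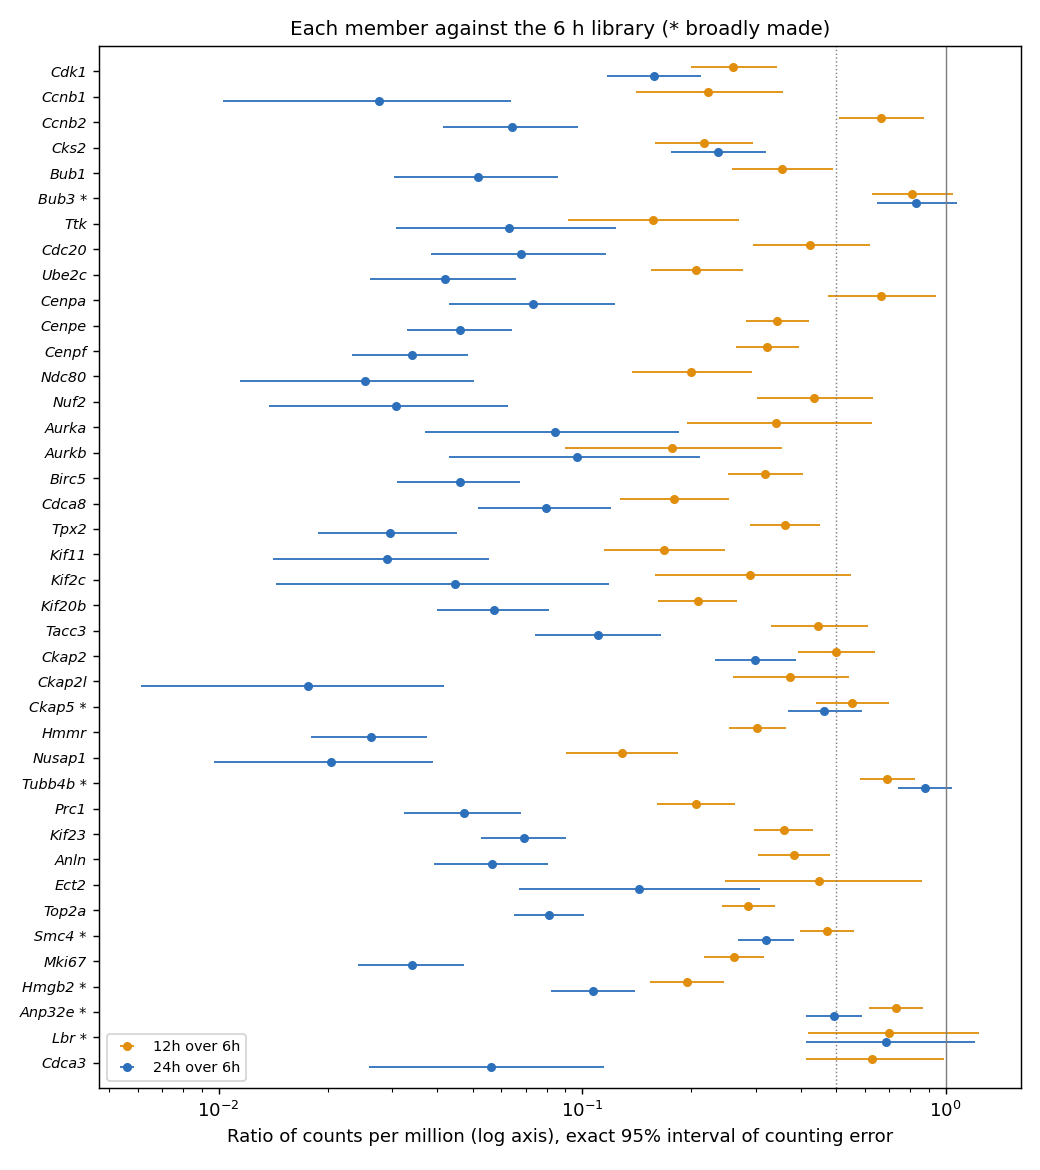
Ratio of CPM of each member at 12 h (orange) and 24 h (blue) to 6 h on a log axis, with exact 95% intervals of counting error and 1 library per time; the solid line marks a ratio of 1, the dotted line 0.5, and asterisks the broadly made members. Core members have lower ratios at 24 h than at 12 h, except Cks2, while the 12 h and 24 h intervals of Bub3 and Lbr overlap each other and include 1.

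The 6 h level rested on few barcodes. Its 3427 member counts came from 366 of 658 barcodes, but 8 barcodes held 50% of them and 10 held 57.7%. The first barcode held 515 counts, or 15.0% (13.8 to 16.3), while holding 2.88% of all counts of the library. All 40 members were counted in it, and it had the highest count, ties included, for 26 of them. Each of the 10 leading barcodes held counts of at least 27 distinct members, so each held most of the programme and not a few genes. For comparison, 21 barcodes held 50% of all counts of the 6 h library, so the members were gathered in fewer barcodes than counts in general. The number of equal barcodes that would give the same unevenness was 21.2 for the members and 68.1 for all genes.

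By gene, the 17 counts of Kif2c at 6 h came from 7 barcodes, with 8 counts in 1 of them, and those of Anp32e, the most widely found, from 84. The share of the leading barcode was 29.0% for Cenpf, 28.0% for Ndc80, 27.9% for Nusap1, 26.8% for Prc1, 23.0% for Hmgb2, 20.7% for Mki67 and 16.9% for Top2a. It was lowest for Anp32e, at 5.62%, and Bub3, at 6.85%. The median core member had 50% of its 6 h counts in 5 barcodes, and in 18 barcodes at 12 h. Core counts of 6 h were thus held by fewer barcodes than those of 12 h, from a library with fewer barcodes and counts.

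At 12 h 53 barcodes held 50% of the 9410 member counts, and the first held 2.79% (2.47 to 3.15). At 24 h 159 barcodes held 50% of the 4597 counts, 54 held 50% of the 1399 core counts and 177 held 50% of the 3198 counts of broadly made members. The core counts of 24 h were again uneven, with 154 counts, or 11% (9.42 to 12.8), in 1 barcode and 29.0% in 5. By all members, 4 barcodes of 24 h had 179, 116, 111 and 77 counts, from 36, 33, 30 and 31 distinct members, and no later barcode had more than 35. A few barcodes with most of the members were thus present in the 24 h library.

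Without the 1.5% of barcodes richest in members in each library (10, 17 and 20 barcodes), an alternative chosen after the data were seen, the counts of members called lower were 10, 5 and 19 in place of 24, 12 and 29. Of all measured genes 2.21%, 0.589% and 2.29% were then lower. The summed ratios of the members were 1.89-fold, 1.89-fold and 3.58-fold lower. These barcodes were picked by their member counts. The 10 richest of each library held 57.7%, 19.6% and 13.7% of its member counts in time order. Leaving out the richest 1.5% thus removes member counts from every library by construction. The share removed was largest at 6 h, where the fewest barcodes held 50% of the member counts. Giving every barcode the same weight left 13 members called lower from 6 h to 12 h, with Ccnb2, Ckap5, Lbr and Cdca3 higher at 12 h, and a summed ratio of 1.80-fold. In that setting 4.29% of all measured genes were lower from 6 h to 12 h.

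**Figure D3:**
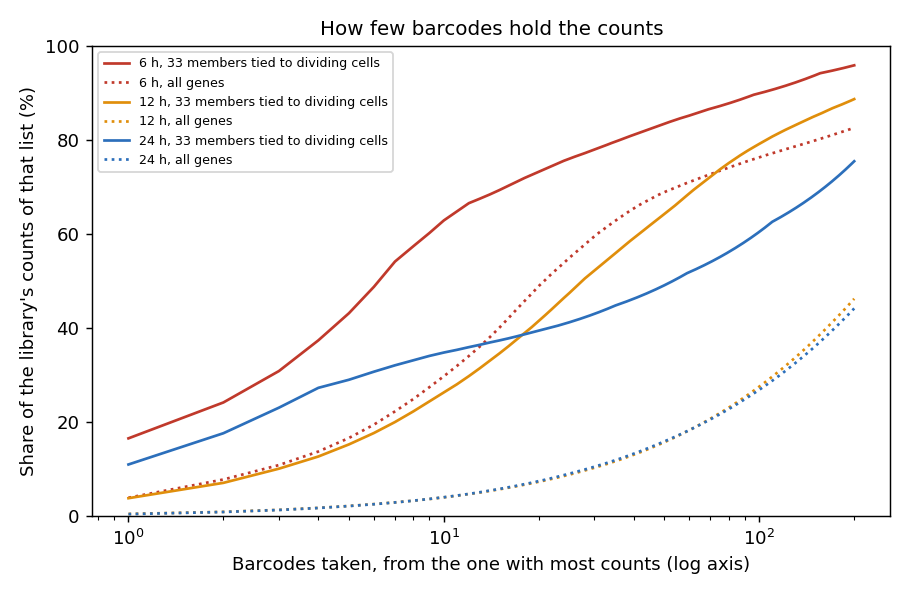
Share of a library's counts (%) held by its leading barcodes, against the number of barcodes taken (log axis), for the 33 core members (solid) and all genes (dotted) at 6, 12 and 24 h, 1 library each. The core line of 6 h passes 50% at 7 barcodes, that of 12 h at 28 and that of 24 h at 54, each to the left of its library's line for all genes.

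The order of the times was the same in all 3 depth classes. The core members of barcodes below 500 counts summed to 2227 CPM (2004 to 2467), 1480 CPM (1166 to 1853) and 318 CPM (218 to 450) in time order. In those from 500 to below 1000 counts they summed to 3345 CPM (2782 to 3988), 1445 CPM (1181 to 1751) and 124 CPM (45.5 to 270). In those of 1000 or more they summed to 3689 CPM (3534 to 3849), 1058 CPM (1031 to 1086) and 226 CPM (214 to 239). Within the 6 h library the shallowest barcodes were the lowest, and within the 12 h library the deepest were.

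To compare shares of barcodes, each was thinned to 500 counts, which left out 524 barcodes at 6 h, 158 at 12 h and 325 at 24 h. At least 2 different core members were then counted in 42 of 134 barcodes at 6 h, or 31.3% (23.6 to 39.9). At 12 h it was 91 of 962, or 9.46% (7.68 to 11.5), and at 24 h 11 of 1003, or 1.10% (0.549 to 1.95). The 3 intervals did not overlap. In these libraries 18, 257 and 277 of all barcodes differed by 1 base from another barcode of the same library, so some may not be separate cells, which was not tested. With such barcodes merged, the shares were 28.0%, 9.73% and 1.24%. Before thinning the shares over all barcodes were 20.5%, 33.5% and 16.0%, beside median depths of 313.5, 3815.5 and 3379 counts. In the library labelled 0 h, with its tubule markers, the thinned share was 5 of 91, or 5.49% (1.81 to 12.4). Kif20b was counted in 21 of those 91 barcodes. The 24 h share was below the share in this library, which holds other cells, but their intervals overlap. Before thinning, 57 of the 92 core counts of this library were of Kif20b. Full-depth medians of the barcodes entered were 630, 1232, 4681.5 and 4814 counts in time order. At least 5 core members were counted in 12.7% (7.57 to 19.5), 3.22% (2.20 to 4.54) and 0.399% (0.109 to 1.02) of barcodes at 6, 12 and 24 h, and in 0 of 91 at 0 h, which allows a share of up to 3.30%.

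Gene by gene, the shares followed the same order. After thinning to 1000 counts, which leaves 80, 865 and 933 barcodes, 31 of 33 core members had their highest share at 6 h, and the same number were lower at each later time. The median core member was counted in 10.0%, 2.43% and 0.322% of barcodes, and the median broadly made member in 11.3%, 6.94% and 7.40%. Kif23 was counted in 20% (11.9 to 30.4), 6.59% (5.03 to 8.45) and 1.39% (0.744 to 2.37), and Mki67 in 15% (8.0 to 24.7), 5.43% (4.02 to 7.16) and 0.429% (0.117 to 1.09). At this depth Ccnb2 and Kif2c were the core exceptions, with Ccnb2 at 6.25% (2.06 to 14.0) of barcodes at 6 h and 6.47% (4.93 to 8.32) at 12 h, which overlap. Kif2c was in none of the 80 barcodes at 6 h, which allows up to 3.75% by the limit of 3 counts, and in 7 of all 658 before thinning. Tubb4b was in 16.3% (8.95 to 26.2), 13.2% (11 to 15.6) and 14.6% (12.4 to 17), with all intervals overlapping. The core exceptions changed with depth. After thinning to 500 counts, 29 of 33 core members were highest at 6 h, all but Cdc20, Aurkb, Ect2 and Cdca3. With 80 barcodes at 6 h, single genes at that time are known only within wide intervals.

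**Figure D4:**
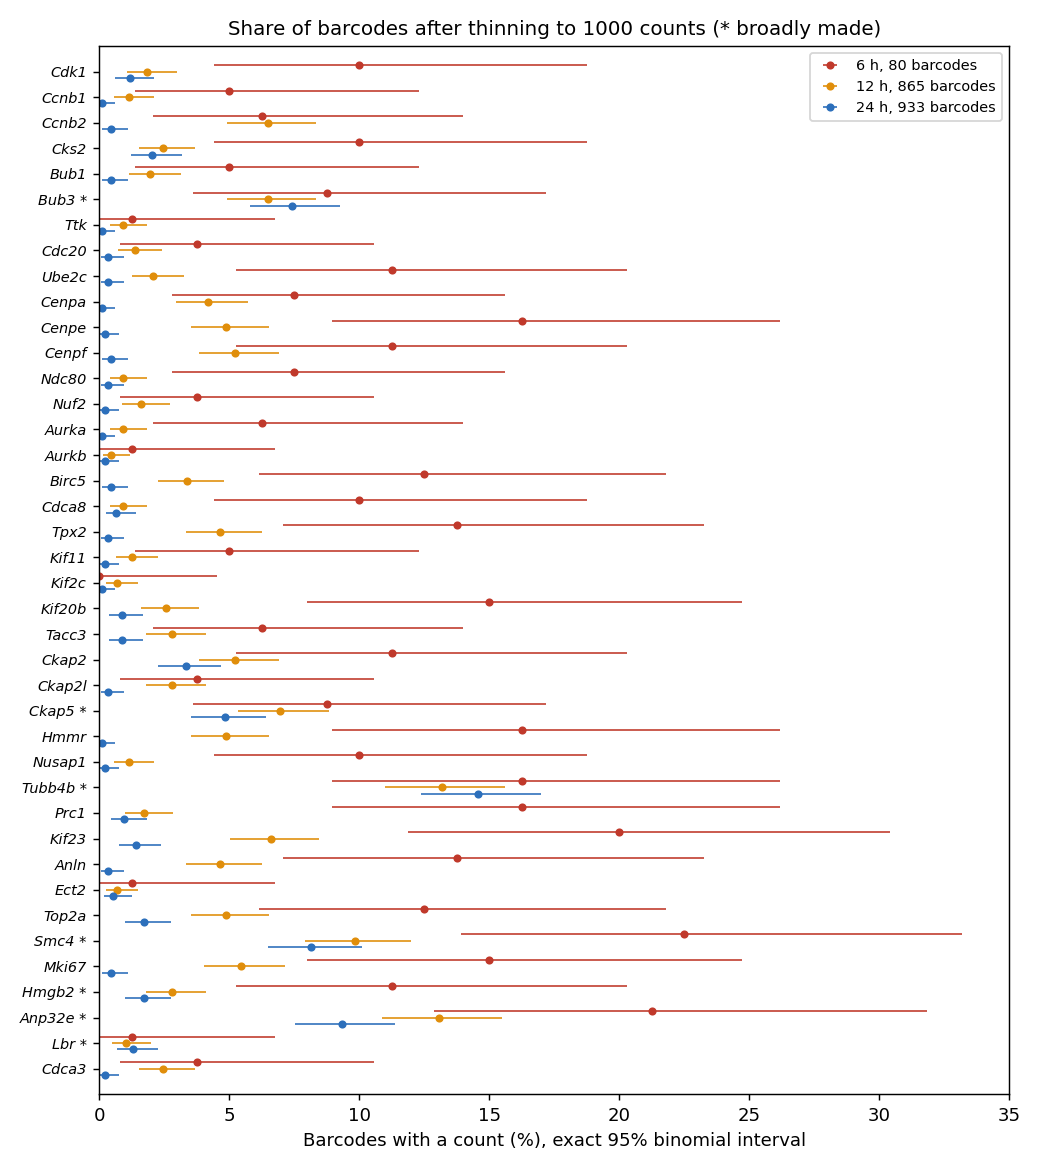
Share of barcodes (%) with a count of each member after thinning to 1000 counts at 6 h (80 barcodes), 12 h (865) and 24 h (933), with exact 95% binomial intervals; asterisks mark broadly made members. Core members such as Kif23, Mki67 and Hmmr lie in the order 6, 12, 24 h, while Tubb4b, Bub3 and Lbr have overlapping intervals at all times.

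Core members were counted together in the same barcodes. At 1000 counts, 42 of the 865 barcodes of 12 h held a Top2a count. In them the other 32 core members were found in a median of 14.3% of barcodes (range 2.38% to 35.7%), against 1.64% (0.122% to 5.83%) in the 823 without Top2a. Cenpe was in 35.7% (21.6 to 52.0) of barcodes with Top2a and 3.28% (2.17 to 4.74) of those without, and Prc1 in 23.8% (12.1 to 39.5) and 0.608% (0.198 to 1.41). Bub3 went the other way without separating, at 2.38% (0.0603 to 12.6) and 6.68% (5.07 to 8.61). The broadly made members had medians of 16.7% with and 6.80% without Top2a. At 6 h the core medians were 25% (range 0% to 80%) in 10 barcodes with Top2a and 4.29% (0% to 12.9%) in 70 without. At 24 h they were 6.25% (0% to 18.8%) in 16 and 0.218% (0% to 3.27%) in 917. The 6.25% at 24 h is 1 of 16 barcodes, so single genes at these 2 times are poorly known. Counting at equal depth leaves barcodes that hold 2 cells in, and without called doublets the shares with at least 2 core members at 500 counts were 30.8%, 9.96% and 1.21%.

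Counted per barcode at 1000 counts, no core member was found in 41.3% of barcodes at 6 h, 70.9% at 12 h and 86.3% at 24 h. Those with 10 or more were 9 of 80, or 11.3% (5.28 to 20.3), at 6 h, 25 of 865, or 2.89% (1.88 to 4.24), at 12 h and 3 of 933, or 0.322% (0.0664 to 0.937), at 24 h. The 9 barcodes of 6 h held 52.9% of the core counts at that depth, the 25 of 12 h 37.2% and the 3 of 24 h 22.6%. Barcodes with 15 or more were 2 of 80 at 6 h and none of 865 or 933 later, which allows up to 0.347% and 0.322%.

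**Figure D5:**
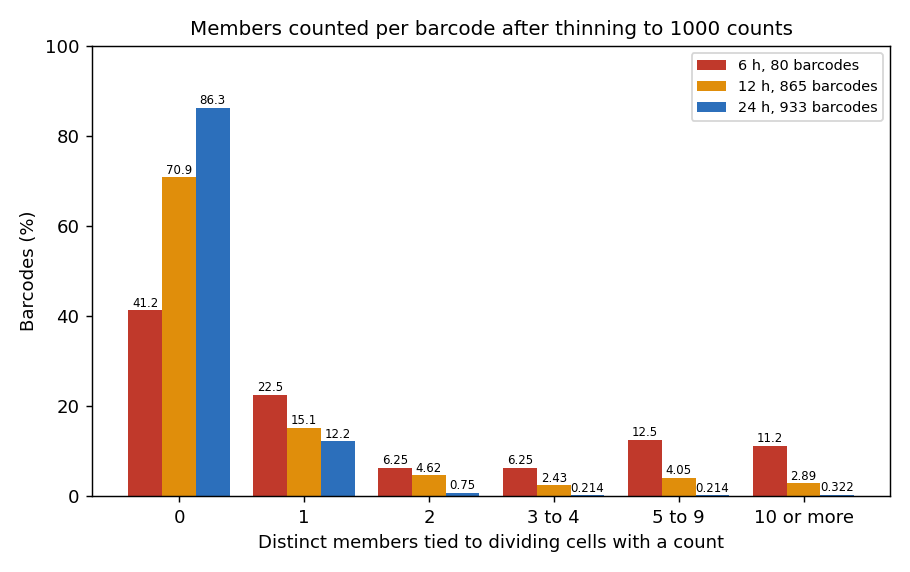
Share of barcodes (%) by the number of different core members counted after thinning to 1000 counts, at 6 h (80 barcodes), 12 h (865) and 24 h (933), 1 library each. The bars for 5 to 9 and for 10 or more members are tallest at 6 h (12.5% and 11.3%) and lowest at 24 h (0.214% and 0.322%).

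In the library labelled 0 h the 40 members had 124 counts in 73 of 192 barcodes, or 1161 CPM (965 to 1384), and 22 of 40 had none, which allows up to 28.1 CPM each. Among those at 0 were Cdk1, Ccnb1, Ccnb2, Cenpf, Hmmr and Birc5. Kif20b had 57 of the 124 counts, spread over 41 barcodes with at most 5 in any, or 534 CPM (404 to 691). That is above its 139 CPM (114 to 167) at 6 h, whereas the 33 core members together, Kif20b included, were at 861 CPM there and 3364 CPM at 6 h. At 500 counts Kif20b was in 23.1% (14.9 to 33.1) of 91 barcodes, against 5.97% (2.61 to 11.4) of 134 at 6 h.

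Genes of the same pathway outside the 40 were lower as well, though less evenly. Of 78 other G2 and M phase genes, 36 were measured from 6 h to 12 h, with 17 lower and none higher, and 34 from 6 h to 24 h, with 18 lower and none higher. From 12 h to 24 h 17 were measured and none was lower or higher. Of all measured genes 2.85% were lower from 6 h to 12 h, 0.757% from 12 h to 24 h and 3.06% from 6 h to 24 h. Dlgap5, a spindle protein, was at 57.8, 20.7 and 1.46 CPM. Plk1, a kinase needed for entry, was at 30.8, 7.74 and 0.973 CPM, and Ccna2, the A-type cyclin, at 28.2, 8.09 and 0.973 CPM. Foxm1, a transcription factor that acts on these promoters, was at 3.85, 3.34 and 1.95 CPM, from 3 counts at 6 h. Of 60 replication and S phase genes, 9 of 27 measured were lower from 6 h to 12 h and 16 of 26 from 6 h to 24 h, and none was higher. From 12 h to 24 h 1 of 17 measured was lower and none higher, with a median log2 ratio of -0.17. Pcna, the replication clamp, was at 213, 91.4 and 89.4 CPM, with a second step of 1.02-fold, and Rrm2, of nucleotide synthesis, was at 65.5, 28.5 and 7.78 CPM.

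Another list held 30 genes that act in G1 or restrain the cycle, namely G1 cyclins, CDK inhibitors, pocket proteins and related genes. None of them was called lower in any of the 3 comparisons. Of all measured genes only 2.85%, 0.757% and 3.06% were lower. With 17, 17 and 15 genes of this list measured, the absence of a lower call does not set the list apart from genes in general. From 6 h to 12 h 2 of the 17 measured were higher, where 4.42% of all measured genes were, and from 12 h to 24 h none of 17. The former were Gadd45a and Btg2, an antiproliferative gene named after its values were seen, at 8.99, 40.8 and 28.2 CPM. From 6 h to 24 h 2 of the 15 measured were higher, where 3.77% of all measured genes were. Those higher from 6 h to 24 h were Cdkn2b, the TGF-β-induced inhibitor of Cdk4 and Cdk6, at 141, 239 and 356 CPM, and Gadd45a, a stress-induced gene, at 47.5, 293 and 216 CPM. Cdkn1a, an inhibitor of cyclin-CDK complexes, was at 615, 804 and 656 CPM, Cdkn1b, another such inhibitor, at 46.2, 62.6 and 53.8 CPM, and Ccnd1, the main G1 cyclin, at 871, 925 and 809 CPM. Cdkn2a, whose locus encodes an inhibitor of Cdk4 and Cdk6, was at 69.3, 137 and 136 CPM.

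The genes most like the members were named by the correlation, over 865 barcodes of 12 h with 1000 counts or more, of log values scaled to 10000 counts with those of the summed members. Among 10103 genes the first 10 were Dlgap5 (r = 0.56), Diap3 (0.53), Kif20a (0.52), 2810417H13Rik (0.51), Smc2 (0.50), Aspm, Kif15, Ncapg, Knstrn and Kif4 (0.46). Of these, 7 were on the list of other G2 and M phase genes, and Diap3, 2810417H13Rik and Knstrn were not. Dlgap5 had r = 0.52 over 80 barcodes of 6 h and 0.20 over 933 of 24 h. Diap3, a formin, was at 172, 67.0 and 20.9 CPM at 6, 12 and 24 h. Barcodes share their library and sequencing depth, so these values are descriptions and carry no test.

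Some members could take reads from other genes. The exons of 7 members (Cdc20, Cdca8, Tacc3, Nusap1, Tubb4b, Prc1 and Lbr) overlap a gene on the opposite strand that is in the table, and whether the counting used strand is not given in the sources. For Nusap1 the partner is Oip5, with 905 counts at 6 h of which 895 stood in 1 barcode that held no Nusap1 count and no count of any member. Ccnb1, Cks2, Cdc20, Tubb4b and Hmgb2 share over 10% of the 51-base words of their last 600 transcript bases with at least 1 pseudogene, so their counts are less certain than those of the others.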

How the data were processed

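Single-cell 3′ RNA of 4 Drop-seq libraries was deposited as 1 table of whole-number counts per gene and cell barcode. The unit was read from the values, whole numbers with a different total in each library. Per the submitters' processing notes STAR 2.5.3a and the mm10 build were used. Which counter, annotation, strand setting and barcode filter were used, and whether molecular identifiers were collapsed, is not given in those notes or in the labels. Every deposited barcode had at least 200 genes. Samples were grouped by the labels, and all columns were assigned to a library by name, with 0 left over. Depth is in the report.

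Each library's counts were added up over barcodes and expressed as CPM. With 1 library per time no test was made. Intervals are exact at 95% (Poisson, conditional binomial or Clopper-Pearson) and cover counting error only. Calls used log2 of CPM plus 10, 2-fold and a mean of 20 CPM. Named were all members, from each other pathway list up to 6 genes with the largest ratio of 24 h to 6 h plus 8 fixed by symbol in all, and the 10 genes most like the members. The members and lists were chosen with earlier results of these data known. Barcodes were thinned to 500 or 1000 counts, and doublets called with Scrublet in scanpy 1.11.5 (33, 9, 18 and 14 in time order) were kept. Alternatives were the scaling (TMM of edgeR 4.0.16, DESeq2 1.42.0 size factors, a total that omits mitochondrial and ribosomal protein genes, or each barcode weighted alike), pseudocount, filter, depth and barcodes left out. Leaving out the 1.5% richest barcodes was chosen after seeing the data. The calculation was tested on simulated data. The work ran in R 4.3.3 and Python 3.11.15 with scipy 1.17.1, pandas 2.3.3, numpy 2.4.6 and matplotlib 3.10.9.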

Additional observations from a re-analysis of the deposited data

Results flagged for a closer look

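The library labelled 0 h was left out of the calls and time courses, and 4 members had so many counts in it that the lower end of their counting interval lay above 3 counts, the limit that a count of 0 allows. Kif20b had 57 counts in 41 of 192 barcodes. Smc4 had 12 counts in 12 barcodes, Kif23 had 10 in 9 and Top2a had 8 in 5. This library lacked the mesenchymal markers of the others.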

How the results depend on the processing

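Of the values that answer a comparison, 92 under alternatives stayed within their error or within 1.5 times the reported count, and 52 did not. Some of the 92 could not change, such as ratios with barcodes 1 base apart merged and medians under another fold limit. No summed ratio or median changed direction, but the order of the shares of barcodes at 6 h and 12 h turned without thinning, as given with those shares. The summed ratio of 12 h to 6 h, reported as 0.376, was 0.346 with TMM, 0.333 with DESeq2 size factors, 0.351 without mitochondrial and ribosomal protein genes, 0.343 in barcodes of 1000 counts or more and 0.419 without the richest barcode of each library. That of 24 h to 12 h, reported as 0.451, was 0.491 with TMM, 0.493 with DESeq2 size factors and 0.472 without mitochondrial and ribosomal protein genes. That of 24 h to 6 h, reported as 0.169, was 0.156 in barcodes of 1000 counts or more and 0.186 without the richest barcode. With equal weight per barcode 13 members were lower from 6 h to 12 h, with a median log2 ratio of -0.52, and the summed ratios were 0.555, 0.395 and 0.219 (12 h to 6 h, 24 h to 12 h, 24 h to 6 h). With a pseudocount of 50, 14 were lower from 6 h to 12 h and 1 from 12 h to 24 h, with medians of -0.86 from 6 h to 12 h and -1.20 from 6 h to 24 h. With a pseudocount of 1 the medians were -1.89 from 12 h to 24 h and -3.95 from 6 h to 24 h. With a mean of 50 CPM, 1 was lower from 12 h to 24 h (median -0.36) and 17 from 6 h to 24 h. Without a filter 20 were lower from 12 h to 24 h. Without the 1.5% richest barcodes 10, 5 and 19 were lower, with medians of -0.80, -0.51 and -2.13 and summed ratios of 0.529, 0.529 and 0.280. The cause of these differences was not tested, apart from settings that use fewer members or barcodes by construction.

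The share of barcodes with at least 2 core members at 6 h, reported as 31.3%, was 16.8% at 300 counts, 48% at 2000, 20.5% unthinned, 48.5% for at least 1 and 20.9% for at least 3. At 12 h, reported as 9.46%, it was 14.0% at 1000 counts, 18.7% at 2000, 33.5% unthinned, 12.9% with all 40 members, 20.9% for at least 1 and 6.55% for at least 3. Unthinned, the 6 h share was thus below the 12 h share, the opposite of the order at equal depth, in libraries with median depths of 313.5 and 3815.5 counts. At 24 h, reported as 1.10%, it was 4.87% at 2000 counts, 16.0% unthinned, 4.99% with all 40 members, 6.58% for at least 1 and 0.499% for at least 3. The share of the first barcode at 6 h, reported as 15.0%, was 18.6% among barcodes of 1000 counts or more and 16.6% without the broadly made members. Of the single genes' values 1595 stayed and 85 did not, of which 39 with a pseudocount of 1 and 36 with one of 50. Each value is a log2 ratio, staying meant a shift below 1, and only a called gene could count as changing direction. The fold limit, the filter on low values and the merging of barcodes 1 base apart cannot change these ratios, so they stayed by construction. All 40 members were lower from 6 h to 12 h under TMM, DESeq2 and the total without mitochondrial and ribosomal protein genes. These scalings moved the median of all genes from 6 h to 12 h by -0.10, -0.15 and -0.08. With equal weight per barcode 36 members were lower from 6 h to 12 h and 38 from 6 h to 24 h. Without the 1.5% richest barcodes it was 39 in both comparisons.

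No paired analysis was possible because each time point is 1 library, and there was no replicate to leave out. At 6 h, 80 barcodes of 1000 counts or more limit what single genes show, and 1 count there is worth more CPM than at the later times.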
